A study of Mus musculus with 4 samples.

Results

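Gene expression under a high-fat diet (HFD) was compared with that under the control diet in GFP-low cells, the sorted fraction of the mouse intestinal epithelium that the labels name progenitors. The comparison covered every gene with at least 20 counts in 1 or both of the GFP-low libraries, which gave 10564 of the 38124 genes in the tables. Both groups were C57BL/6 males of 71 weeks that carried a GFP reporter, and each group was a single library made from sorted cells of 2 to 5 pooled mice. One group had been fed the high-fat diet and the other the diet that the labels call normal. The series also holds 1 library of GFP-high cells, named intestinal stem cells, for each diet, and these are set beside the GFP-low values below. What drives GFP, and what the diets contained, is not given in the sources used here, nor is whether GFP-high and GFP-low cells were sorted from shared animals. With 1 pool per group there is no spread between replicates, so no test was made and every interval covers counting error only. Diet and any other difference between the pools of mice cannot be told apart.

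The crypts of the small intestine hold stem cells at their base, which divide to give short-lived progenitors. Progenitors take either the absorptive path, to enterocytes with a brush border of digestive enzymes, or the secretory path, to goblet, Paneth, enteroendocrine and tuft cells, a choice in which Notch signalling holds back the secretory factor Atoh1. Dietary fatty acids are ligands of the PPAR nuclear receptors, which pair with RXR and switch on genes for fatty acid binding and oxidation. The epithelium also senses microbes and cytokines and answers with antimicrobial lectins, reactive oxygen and nitrogen species and, under interferon gamma, MHC class II molecules.

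The GFP-low libraries held 5327015 counts under HFD and 4677389 under control, and the compared genes held 99.6% and 99.5% of them. Levels are given as CPM, counts per 1000000 of a library size scaled by the TMM method. A gene with 0 counts could reach 0.607 CPM in the HFD library and 0.680 CPM in the control library, from an upper limit of 3 counts. Markers of the epithelium were present throughout: all 15 genes of that list were in the comparison and none was counted as different (median log2 ratio 0.04). Of 27 leukocyte genes 1 reached 20 counts, the list summed to 133 counts under HFD and 178 under control, and 19 and 17 of its genes were at 0 in the respective library, the pan-leukocyte marker Ptprc among them. Of 19 stromal genes 1 reached 20 counts, with sums of 120 and 153. Lgr5, the receptor that marks crypt base stem cells, was at 12.5 CPM under HFD and 12.7 CPM under control, while Mki67, a protein of cycling cells, was at 752 and 863 CPM. Transcripts of enterocytes and of each secretory lineage were present as well, so the fraction named progenitors held RNA typical of several stages and lineages.

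A gene was counted as higher or lower under HFD when the ratio of its CPM, with 0.5 CPM added to each side, was at least 2-fold and when the exact 95% interval of the ratio of counts left out equality. By this rule 176 genes (1.67%) were higher and 285 (2.70%) were lower, together 4.36% of the genes compared. A difference of 4-fold or more was reached by 22 higher and 44 lower genes, and one of 8-fold or more by 4 and 18. The median log2 ratio was 0.01, and 86.2% of the genes lay within 1.5-fold of equality. Genes just past the 2-fold line, between 2-fold and 2.1-fold, numbered 28 higher and 51 lower, and 28 and 76 genes lay just short of it, between 1.9-fold and 2-fold. A further 376 genes had 15 to 19 counts in their higher library and were left out, while 317 with 20 to 24 counts were included. The share counted was 10.1% among the 1494 genes with 20 to 49 counts in the higher library, where the intervals reached a median of 0.83 log2 units to each side. Among the 5265 genes with 100 to 499 counts it was 2.49%, with a median reach of 0.29. The lower genes took 5.15% of all counts in the control library and 2.02% in the HFD library. The higher genes took 0.538% and 1.44%.

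**Figure D1:**
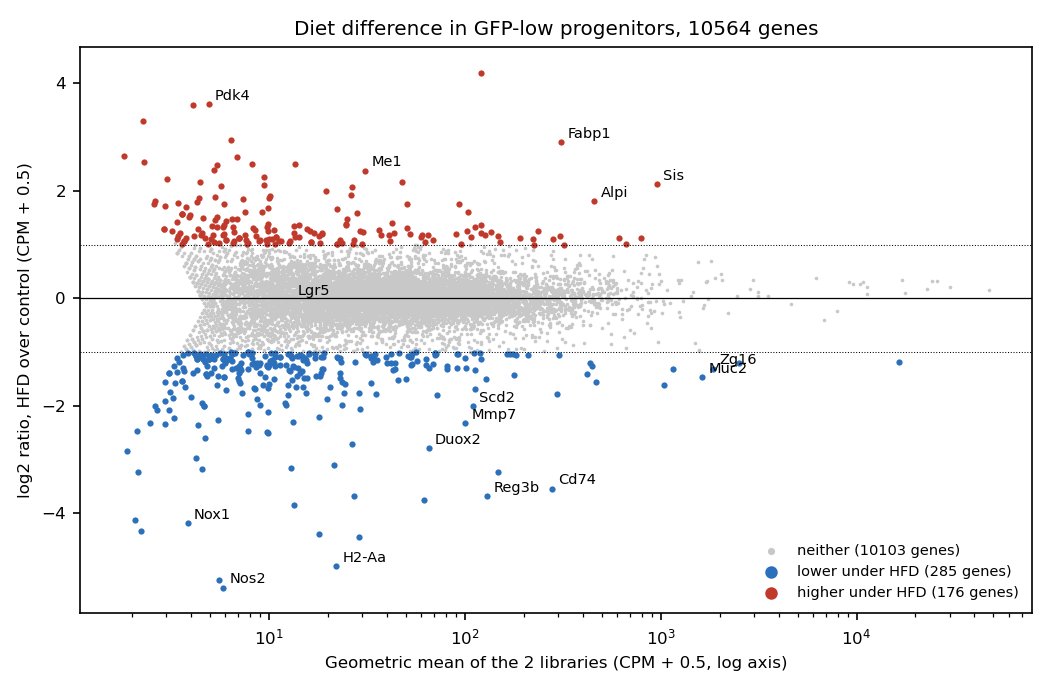
Each point is 1 of 10564 genes in GFP-low cells, with the geometric mean of its CPM in both diets on a log axis and the log2 ratio of HFD over control on the vertical axis; dotted lines mark 2-fold. Among the 176 higher genes (red) Pdk4 is at 3.62 and Fabp1 at 2.91, and the 285 lower genes (blue) reach -5.38 at Nos2, while Lgr5 sits at -0.02.

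Genes of fatty acid use were higher under HFD. Pdk4, a kinase that inhibits the pyruvate dehydrogenase complex, had 83 counts under HFD and 4 under control (log2 ratio 3.62, interval 2.80 to 6.12). Fabp1, a cytosolic fatty acid carrier, was at 852 CPM against 113 CPM (2.91, interval 2.79 to 3.06). Pdk4 (6:5483351-5496309 in GRCm38) and Fabp1 (6:71199827-71205023) lie far apart on chromosome 6, and no annotated exon of another gene overlaps theirs.

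Of 41 genes known to be induced by PPAR receptors, 18 were higher and 0 lower, with a median log2 ratio of 0.85 beside 0.01 over all genes; the lists share genes, so their counts overlap. Cyp4a10, which starts the omega-oxidation of fatty acids, had 68 counts under HFD and 3 under control (3.60, interval 2.73 to 6.65). Acaa1b, a peroxisomal thiolase, had 33 counts against 1 (3.30, interval 2.30 to 10.23), and its exons overlap those of Dlec1 on the other strand. Acot1, which releases fatty acids from coenzyme A, was at 19.02 CPM against 2.95 CPM (2.50), and its neighbour Acot2 at 19.2 CPM against 4.08 CPM (2.11). Me1, the malic enzyme that makes cytosolic NADPH, was at 70.4 CPM against 13.1 CPM (2.38, interval 2.02 to 2.85). Mgll, the lipase of monoacylglycerol, was at 19.2 CPM against 4.76 CPM (1.91), and Angptl4, an inhibitor of lipoprotein lipase, at 18.6 CPM against 4.76 CPM (1.86). Cpt1a, which commits fatty acids to mitochondrial oxidation, was at 457 CPM against 308 CPM, a log2 ratio of 0.57 (interval 0.47 to 0.67) that stayed below 2-fold.

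A promoter of Fabp1 held 1 match to the direct repeat bound by PPAR with RXR, searched on both strands as 2 copies of AGGNCA with 1 base between them. The bases are shown because the gene was among the highest and few promoters hold this motif. The RefSeq promoter window of GRCm38.p6 runs from 250 bases before a transcript start to 50 after it; the stretch printed is chr6:71199629-71199826, on the plus strand of the gene and cut where annotated exons begin. The capitals are the match, which reads on the reverse strand and lies 67 to 55 bases before the RefSeq transcript start that defines the window. The GENCODE M21 gene begins upstream of that start, at 71199827, and the match lies just before its first exon.
Fabp1: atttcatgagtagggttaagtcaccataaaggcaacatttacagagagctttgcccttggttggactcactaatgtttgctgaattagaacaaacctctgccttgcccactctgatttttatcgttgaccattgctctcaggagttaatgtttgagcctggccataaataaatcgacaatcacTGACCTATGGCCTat
A window was matched by symbol for 8334 of the 10487 compared genes that have a symbol, 138 of them higher and 207 lower under HFD. The repeat was present for 2 of the higher genes (1.45%), Fabp1 and Dusp28, for 4 of the lower genes (1.93%), and for 24 of all matched genes (0.288%). It occurred in 0.381% of all 32851 mouse windows. A match in these letters is a description of the window and not a binding site.

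The receptors themselves differed less than their targets. Ppara was at 52.0 CPM under HFD and 36.5 CPM under control (log2 ratio 0.51, interval 0.22 to 0.80), Ppard at 286 and 250 CPM (0.19) and Pparg at 12.5 and 9.52 CPM (0.38, interval -0.19 to 0.9997). In the list of 17 receptors and coactivators 2 genes were higher and 0 lower (median 0.07). These were Ppargc1a, a coactivator of oxidative metabolism, at 56.5 CPM against 23.1 CPM (1.27, interval 0.96 to 1.63), and Nr1h3, the oxysterol receptor LXR alpha, at 42.3 CPM against 20.6 CPM (1.02).

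Mitochondrial beta-oxidation and the carnitine shuttle had 4 of 23 genes higher and 0 lower, and 22 of the 23 lay above 0 (median 0.64). The 4 were Slc25a20, the carnitine carrier (1.20), Acaa2, the last thiolase of the cycle (1.17), Acadl, the long-chain acyl-CoA dehydrogenase (1.14), and Acadvl, the very long-chain one, with 1390 counts against 569 (1.12, interval 0.98 to 1.27). Hadha, the trifunctional protein's alpha subunit, was at 570 CPM against 326 CPM (0.81), Acadm at 146 CPM against 99.01 CPM (0.55) and Cpt2 at 181 CPM against 127 CPM (0.51), all short of 2-fold. Peroxisomal oxidation had 1 of 18 genes higher, Acaa1b, and a median of 0.68. Oxct1, which starts the use of ketone bodies, was at 77.5 CPM against 148 CPM (-0.93, interval -1.12 to -0.75), and Bdh1, which makes beta-hydroxybutyrate, at 220 and 217 CPM (0.02).

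Lists of lipid uptake, storage and export held both higher genes and a larger number that were not counted. Cd36, a fatty acid translocase, had 49 counts under HFD and 19 under control (1.12, interval 0.41 to 2.05), and Fabp2, the intestinal fatty acid carrier, was at 414 CPM against 192 CPM (1.10). In the uptake list of 17 genes 4 were higher and 1 lower, the lower one being Acsl4, an acyl-CoA ligase that prefers arachidonate (-1.29). Among 14 lipases and lipid droplet proteins 4 were higher and 0 lower, with a median of 0.71. These included Cidec, which enlarges lipid droplets, at 41 counts against 12 (1.45), and the carboxylesterases Ces2a (1.19) and Ces2e (1.16). In chylomicron assembly 2 of 22 genes were higher, Apoc3 (1.09) and Gpd1 (1.001), and 1 was lower, Apobec1, the enzyme that edits Apob mRNA, at 17.8 CPM against 41.2 CPM (-1.19). Apob, the structural protein of chylomicrons, was at 1212 CPM against 715 CPM (0.76) and Mttp, which loads it with lipid, at 1065 CPM against 638 CPM (0.74).

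Lipid synthesis did not move as a group. Of 17 genes of fatty acid synthesis Me1 was higher and Scd2, a stearoyl-CoA desaturase, was lower, at 54.4 CPM against 220 CPM (-2.004, interval -2.21 to -1.82), with a list median of 0.03. Fasn, the fatty acid synthase, was at 302 CPM against 350 CPM (-0.21). Scd1 had 6 counts against 2 and was too low to be compared. The list of 25 cholesterol genes had a median of 0.02.

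Sugar metabolism divided within 1 list. Of 30 genes of glycolysis and fructose use 7 were higher and 4 lower (median 0.51). The higher ones included Slc2a2, the GLUT2 sugar carrier, with 158 counts against 23 (2.51, interval 1.98 to 3.32), G6pc, which releases glucose from glucose 6-phosphate, with 44 against 7 (2.17), and Khk, which starts fructose breakdown, at 194 CPM against 75.2 CPM (1.36). Pkm, the pyruvate kinase of dividing cells, was at 901 CPM against 414 CPM (1.12). The lower ones were Hk2 (204 counts against 452, -1.30) and Hk1 (32 against 71, -1.25), both hexokinases, Pfkfb3, which makes an activator of glycolysis (-1.10), and Pck1, an enzyme of gluconeogenesis (-1.03). The 2 hexokinases that begin glycolysis were thus lower while Khk was higher.

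Subunits of the respiratory chain showed small differences of 1 sign. All 38 nuclear encoded subunits lay above 0 with a median log2 ratio of 0.32, and all 12 mitochondrially encoded ones lay above 0 with a median of 0.31, but none reached 2-fold. Mitochondrially encoded messages made up 16.8% of the counts under HFD and 14.1% under control.

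Some genes of mature enterocytes were higher, while most of those listed were not counted as different. Sis, which encodes sucrase-isomaltase, was at 1998 CPM under HFD and 456 CPM under control (2.13, interval 2.06 to 2.20). Alpi, the intestinal alkaline phosphatase, was at 859 CPM against 245 CPM (1.81, interval 1.71 to 1.91), and Akp3, its duodenal relative, at 101 CPM against 22.2 CPM (2.17). Of 17 brush border hydrolases and peptidases 7 were higher and 0 lower, with a median of 0.42 (0.67 over those with at least 100 counts, and also over those without exon overlap). Besides Sis and Alpi they included Mep1a, a subunit of the meprin protease (1.58), Treh, the trehalase (1.36), and Lct, the lactase (1.06). Mep1b, the partner subunit of Mep1a, was at 98.1 CPM against 112 CPM (-0.18). Summed, the list took 0.610% of all counts under HFD and 0.361% under control, from 32509 and 16871 counts. Much of this difference came from Sis, with 9873 counts against 2012, and Alpi, with 4243 against 1082.

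Of 25 other enterocyte markers 3 were higher and 0 lower (median 0.33). They included Slc2a2 and Rbp2, a carrier of retinol, at 364 CPM against 152 CPM (1.26, interval 1.13 to 1.39). Krt20, a keratin of differentiated villus cells, was at 200 CPM against 295 CPM (-0.56), on the other side of equality from Sis and Alpi. Vitamin A handling had 4 of 9 genes higher and 0 lower. These were Rdh7, a retinol dehydrogenase, at 54.0 CPM against 12.5 CPM (2.07), Aldh1a1, which makes retinoic acid, at 92.3 CPM against 27.0 CPM (1.76), Rbp2, and Rbp7 (1.22). Drug-metabolizing enzymes had 7 of 33 higher and 0 lower (median 0.63), led after Aldh1a1 by Cyp2u1 (1.61) and the glucuronosyltransferase Ugt2b5 with 54 counts against 16 (1.47). Genes whose level depends on the position along the intestine were mixed. Gata4, a factor of the proximal small intestine, was at 241 CPM against 230 CPM (0.06), while Fabp6, the bile acid carrier of the ileum, was at 27.3 CPM against 15.4 CPM (0.81) and Osr2 at 71.4 CPM against 42.4 CPM (0.75). Whether the sampled segment differed between the pools was not tested.

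**Figure D2:**
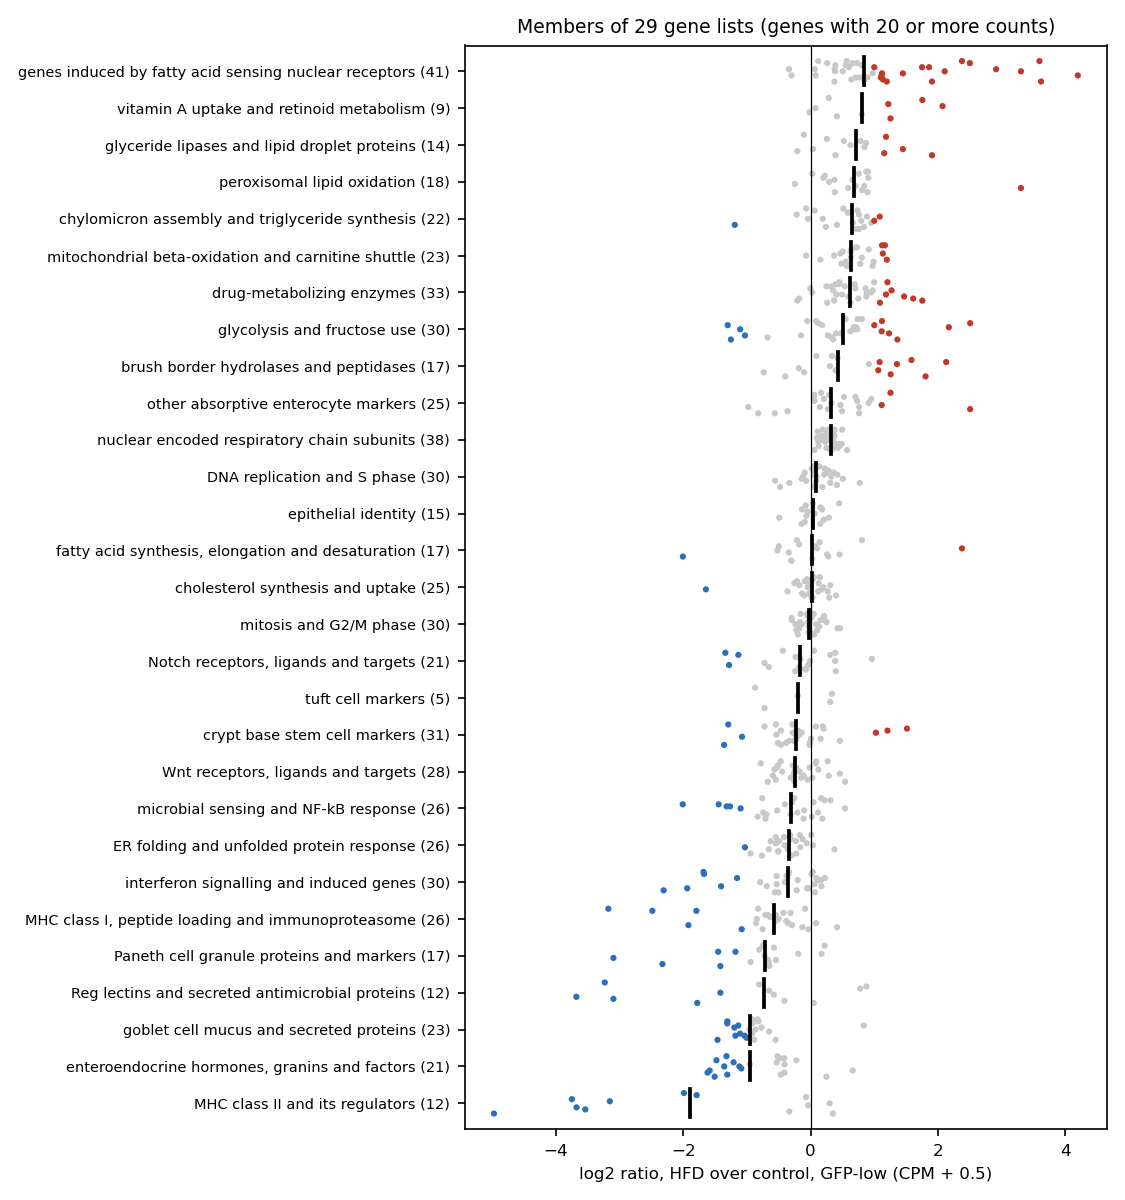
Each point is a gene of 1 of 29 lists, placed by its log2 ratio of HFD over control in GFP-low cells; numbers in brackets give the genes compared, black bars the list medians, red and blue points the genes counted as higher and lower. PPAR-induced genes have the highest median (0.85) and MHC class II the lowest (-1.89), while lists of DNA replication and mitosis hold no coloured point.

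Host defence genes were lower under HFD. Nos2, the inducible nitric oxide synthase, had 2 counts under HFD and 164 under control (-5.38, interval of the count ratio -9.58 to -4.64), the lowest log2 ratio of all genes compared. H2-Aa, the alpha chain of an MHC class II molecule, had 17 counts against 543 (-4.97, interval -5.95 to -4.47). Reg3b and Reg3g, antimicrobial lectins, were at 36.0 CPM against 467 CPM (-3.68) and at 48.0 CPM against 454 CPM (-3.23).

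Of 12 MHC class II genes and regulators 7 were lower and 0 higher, with a median log2 ratio of -1.89 (-3.34 over those without exon overlap). H2-Ab1, the partner chain of H2-Aa, was at 16.4 CPM against 226 CPM (-3.75), H2-Eb1 at 7.08 CPM against 96.3 CPM (-3.67), and Cd74, the invariant chain that fills the peptide groove, at 81.1 CPM against 947 CPM (-3.54, interval -3.70 to -3.40). The peptide loading genes H2-DMb1 and H2-DMa were at -3.15 and -1.99. Ciita, the coactivator on which class II transcription depends, had 31 counts against 101 (-1.79, interval -2.50 to -1.27), and its exons overlap those of Dexi on the other strand. The DNA-binding partners of Ciita were close to equality, with Rfx5 at 0.30, Rfxank at -0.33 and Rfxap at -0.07. The lysosomal protease Ctss, which trims the invariant chain, was at 39.05 CPM against 40.1 CPM (-0.04). Within this pathway the chains, the loading factors and Ciita were thus lower, while these other factors stayed within 1.5-fold. The leukocyte list, whose cells also carry class II molecules, summed to 133 and 178 counts, with Ptprc and Csf1r at 0 in both libraries and Itgax at 0 and 2 counts.

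MHC class I and its peptide supply had 5 of 26 genes lower and 0 higher (median -0.58), with 24 of the 26 below 0. Nlrc5, the coactivator of class I genes, had 5 counts against 58 (-3.17, interval -5.37 to -2.39), and its exons overlap those of 9330175E14Rik on the other strand. H2-Q7 and H2-Q6, nonclassical class I molecules, were at -2.48 and -1.92, and since they are close copies reads may be shared between them. Psmb8, an immunoproteasome subunit, was at 38.2 CPM against 134 CPM (-1.79). The abundant members differed less: B2m, the shared light chain, was at 444 CPM against 707 CPM (-0.67), H2-K1 at 241 CPM against 406 CPM (-0.75) and Tap1, the peptide transporter, at 41.7 CPM against 75.7 CPM (-0.85).

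Of 30 interferon-induced genes and signalling components 6 were lower and 0 higher (median -0.36). They included the GTPases Irgm2, with 27 counts against 128 (-2.31), and Gbp7, with 9 against 37 (-1.94), and the nucleic acid sensor Zbp1, with 21 against 65 (-1.68). Irf1, an interferon-induced factor, was at 121 CPM against 178 CPM (-0.56). Ido1, an interferon-induced enzyme of tryptophan breakdown, was named after its values were seen. It had 0 counts under HFD and 36 under control, at least 13.4-fold lower when the HFD library is set to 3 counts.

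Promoter stretches of lower genes with interferon and NF-kB motifs are shown because several of these genes lie next to each other or answer the same signals. They come from RefSeq windows of GRCm38.p6, are written on the strand of the gene, and hold no base that GENCODE M21 annotates as exon. Capitals mark 2 copies of GAAA with 2 bases between them (ISRE, the interferon-stimulated response element) in Irgm2 (chr11:58214883-58214952, plus strand), Igtp (chr11:58199492-58199555, plus strand) and Gbp7 (chr3:142530253-142530322, plus strand, match on the reverse strand). They mark TTCNNNGAA (GAS, the interferon gamma-activated site) in Reg3b (chr6:78370726-78370794, plus strand) and GGGA with TTTCC 1 base further on (NF-kB) in Nfkbia (chr12:55492648-55492706, minus strand, match on the reverse strand).
Irgm2: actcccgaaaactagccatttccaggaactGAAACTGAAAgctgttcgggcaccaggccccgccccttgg
Igtp: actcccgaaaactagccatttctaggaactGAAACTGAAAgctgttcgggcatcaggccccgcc
Gbp7: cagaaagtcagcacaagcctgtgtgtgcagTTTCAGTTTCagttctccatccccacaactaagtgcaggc
Reg3b: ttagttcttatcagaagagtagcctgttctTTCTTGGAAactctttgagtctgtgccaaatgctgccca
Nfkbia: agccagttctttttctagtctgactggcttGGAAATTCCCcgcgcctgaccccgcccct
The stretches of Irgm2 and Igtp are nearly the same, and the 2 genes share annotated exons on the same strand, so their reads may be shared too. The Irgm2 window did not match the start of an annotated transcript. The GAS letters, searched on both strands, were present for 34 of the 207 lower genes with a window (16.4%), 7 of the 138 higher genes (5.07%) and 8.26% of all matched genes, and in 8.30% of all mouse windows. The ISRE letters were present for 15 lower genes (7.25%), 2 higher genes (1.45%) and 3.46% of all matched genes, and in 3.44% of all windows. Both occurred for 7 of the 207 lower genes, namely Bst2, Gbp7, Gm12250, Ifitm3, Igtp, Irgm2 and Rnase1, and for 47 of all 8334 matched genes. The NF-kB letters were present for 4 lower genes (1.93%), Clca3a2, Tifa, Nfkb2 and Nfkbia, and for 0 higher genes. They were present for 0.492% of all matched genes and in 0.411% of all windows. The X box of MHC class II promoters was found for 1 lower gene (0.483%), H2-DMb1, and 0 higher genes. It was found for 4 of all matched genes (0.048%) and in 0.0609% of all windows. TCACNCCAC, the sterol response element, was found for 3 higher genes (2.17%), 5 lower genes (2.42%) and 1.42% of all matched genes, and in 1.24% of all windows. A gene with several windows was counted once if any of them held the letters.

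The list of superoxide, peroxide and nitric oxide enzymes had 7 of 18 genes lower and 0 higher, with 8 above 0 and 10 below (median -0.32). Summed, it was at 2768 CPM under HFD and 2760 CPM under control. Nox1, the superoxide-producing oxidase of the epithelium, had 2 counts under HFD and 70 under control (-4.18, interval -8.37 to -3.39), and its exons overlap those of Cstf2 on the other strand. Its partner subunits Noxa1 (63 counts against 195, -1.75) and Cyba (92 against 250, -1.58) were lower too, while Noxo1, its organizer, was at -0.57. Duox2, which releases hydrogen peroxide into the lumen, was at 24.5 CPM against 172 CPM (-2.79, interval -3.10 to -2.53), and Duoxa2, which brings it to the surface, had 14 counts against 79 (-2.46). Pxdn, a peroxidase of the extracellular matrix, had 2 counts against 148 (-5.23). Enzymes that remove reactive species were not counted as lower. Cat, the catalase, was at 250 CPM against 133 CPM (0.90), Sod2 at 0.31 and Gpx1 at 0.34, and none of 23 antioxidant genes was counted as different.

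Secreted antimicrobial proteins had 5 of 12 genes lower and 0 higher (median -0.73, or -1.51 when genes with as little as 1 count are taken in). Besides Reg3b and Reg3g they were Pla2g2a, a phospholipase of Paneth cells, with 34 counts against 276 (-3.09), the chemokine Ccl6 (785 against 2410, -1.78) and the lectin Itln1 (1271 against 3031, -1.42). Pla2g2a carries a polymorphic pseudogene biotype in GENCODE M21, so its RNA need not stand for a working enzyme in these mice. It is reported because it had been listed by name. Reg1 was at 155 CPM against 150 CPM (0.05) and Reg3a at 24.9 CPM against 14.3 CPM (0.78), so the Reg family was not lower throughout. Pigr, which carries IgA to the lumen, was at -0.41. Of 26 genes of microbial sensing and the NF-kB response 5 were lower and 0 higher (median -0.30), including Tlr2, a receptor of bacterial lipoproteins, with 4 counts against 21 (-2.01), Casp4, a sensor of lipopolysaccharide (-1.44), and Nfkb2 (-1.32). Nfkbia, the inhibitor that NF-kB induces, was at 35.8 CPM against 77.3 CPM (-1.10, interval -1.38 to -0.84). Exons of Nfkb2 overlap those of Psd on the other strand.

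**Figure D3:**
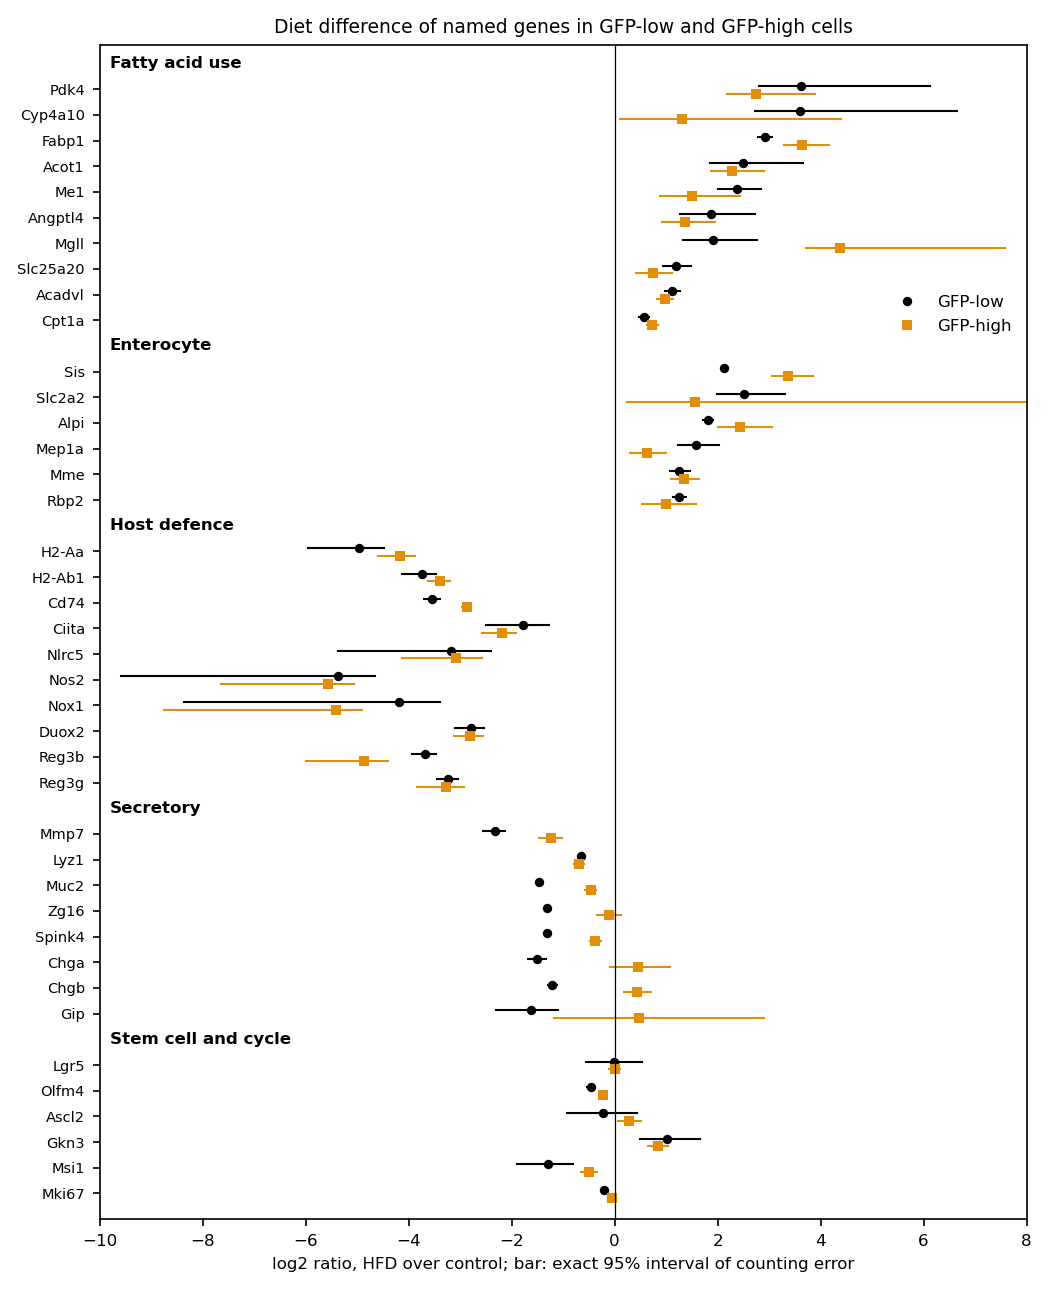
Log2 ratios of HFD over control are plotted for 40 named genes in GFP-low (black circles) and GFP-high cells (orange squares), with exact 95% intervals of the count ratio as bars; bars of genes with very few counts run past the axis or far to 1 side. Fatty acid and enterocyte genes lie to the right, host defence genes to the left in both fractions, and Chga and Chgb lie left of 0 in GFP-low and right of it in GFP-high.

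Goblet cell genes were lower in this fraction. Muc2, the gel-forming mucin, was at 982 CPM under HFD and 2701 CPM under control (-1.46, interval -1.51 to -1.41), and Zg16, a secreted lectin, at 1172 CPM against 2900 CPM (-1.31). Of 23 goblet genes 9 were lower, 0 higher, and 22 lay below 0 with a median of -0.94. Fcgbp, a mucus protein, had 54311 counts against 109892 (-1.18), and Clca1, a mucus protease, 8182 against 16741 (-1.20). The factors that specify secretory and goblet cells were lower by similar amounts, with Atoh1 at 81.7 CPM against 180 CPM (-1.13), Spdef at 67.6 CPM against 146 CPM (-1.10) and Klf4 at 115 CPM against 235 CPM (-1.03). Muc3, a membrane mucin, was the one gene above 0, at 166 CPM against 92.4 CPM (0.84). Goblet genes together took 1.93% of the counts under HFD and 4.34% under control. In such bulk libraries fewer cells of a type and less RNA per cell cannot be told apart.

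Enteroendocrine genes were lower as well, 10 of 21 with 0 higher and a median of -0.95. Chga, a granin of hormone granules, was at 75.7 CPM against 216 CPM (-1.50, interval -1.69 to -1.34), and Chgb at 288 CPM against 665 CPM (-1.21, interval -1.30 to -1.12). Among the hormones Gip had 33 counts against 95 (-1.62), Tac1 66 against 168 (-1.48) and Gcg 253 against 567 (-1.32), while Cck, with 191 against 332 (-0.95), stayed just short of 2-fold. Sct had 65 counts against 78 (-0.41, interval -0.92 to 0.07) and Ghrl 22 against 28 (-0.47). No transcription factor of the list was counted: Neurog3, which starts the lineage, was at 24.1 CPM against 20.2 CPM (0.25, interval -0.15 to 0.67) and Pax4 at 0.66. The others were below 0, with Neurod1 at -0.53 (interval -0.995 to -0.099), Pax6 at -0.52, Rfx6 at -0.48, Insm1 and Nkx2-2 at -0.41 and Fev at -0.22, near the values of Sct and Ghrl. The list took 0.0596% of the counts under HFD and 0.134% under control.

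Paneth genes had 5 of 17 lower and 0 higher (median -0.72). Mmp7, the protease that activates defensins, was at 44.3 CPM against 224 CPM (-2.33, interval -2.56 to -2.13), and its exons overlap those of AV064505 on the other strand. Pla2g2a and Itln1 were also among the 5, with Nupr1 (39 counts against 99, -1.45) and the defensin Defa17 (109 against 223, -1.18). Lyz1, the lysozyme, was at 585 CPM against 915 CPM (-0.65), and Defa22 was at 14.4 CPM against 12.7 CPM (0.17). Defensin genes are near-identical copies, so counts may be split among them. Of 5 tuft cell genes none was counted: Avil was at -0.87, Dclk1 at -0.72 (16 counts against 25, interval -1.81 to 0.16) and Trpm5 at 0.34.

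**Figure D4:**
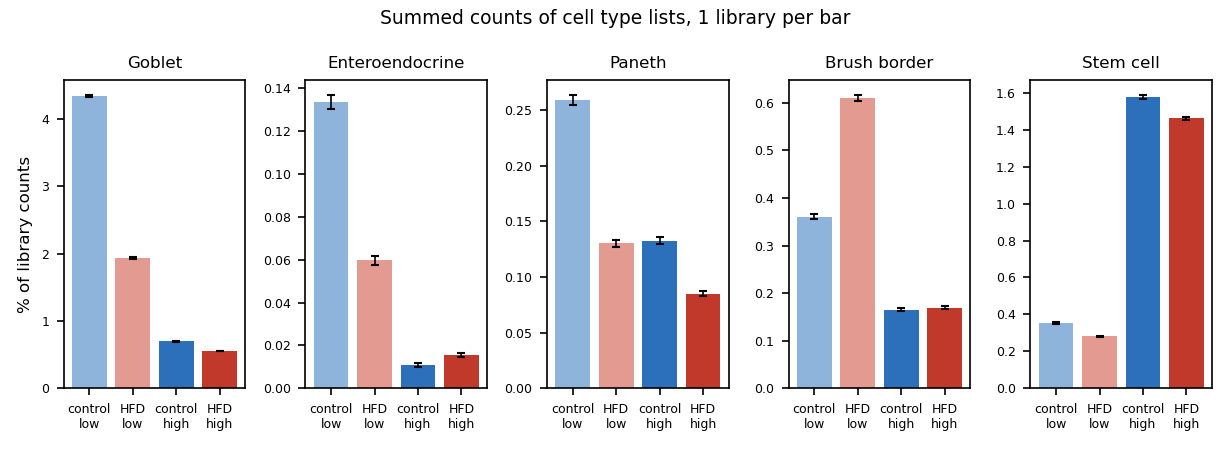
Bars give the percent of all counts of a library that fell on the genes of 5 cell type lists, with exact 95% binomial intervals, for each diet in GFP-low and GFP-high cells (1 library per bar, a separate scale per panel). In GFP-low cells the goblet share is 1.93% under HFD and 4.34% under control, and the brush border share 0.610% and 0.361%. Much of the brush border difference comes from Sis and Alpi.

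Stem cell markers did not move together. Lgr5 had 62 counts under HFD and 56 under control (-0.02, interval -0.56 to 0.53), Ascl2, a Wnt-driven stem cell factor, 38 against 40 (-0.22) and Olfm4, a secreted protein of stem cells, 3594 against 4429 (-0.46). Of 31 markers 3 were higher and 3 lower, with a median of -0.22. The higher ones were Cyp2e1, a cytochrome P450 (43 counts against 12, 1.52), Slc14a1, a urea transporter (99 against 37, 1.21), and Gkn3, a secreted crypt protein (87 against 37, 1.03). The lower ones were Sectm1b (37 against 88, -1.36), Msi1, an RNA-binding protein (42 against 95, -1.29), and Scn2b, a sodium channel subunit (46 against 89, -1.08). The list took 0.281% of counts under HFD and 0.354% under control, beside 1.46% and 1.58% in GFP-high cells.

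Cell division genes differed little. None of 30 genes of DNA replication (median 0.09) and none of 30 genes of mitosis (median -0.02) was counted, and Mki67 had a log2 ratio of -0.20 (interval -0.27 to -0.13). Inhibitors of the cycle gave 0 of 13, with Cdkn1a at 67.6 CPM against 64.3 CPM (0.07). Wnt components and targets gave 0 of 28, 20 of them below 0 (median -0.24): Axin2, a direct target, was at 89.8 CPM against 128 CPM (-0.51) and Myc at 71.0 CPM against 122 CPM (-0.78, interval -0.98 to -0.59).

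In the Notch list 3 of 21 genes were lower and 0 higher (median -0.16). These were Dll4, a ligand carried by secretory progenitors, at 26.5 CPM against 67.7 CPM (-1.34), the receptor Notch4 (29 counts against 66, -1.28) and Atoh1. Dll1, the other delta ligand, was at 135 CPM against 213 CPM (-0.65), Hes1, the main target in the crypt, at 47.8 CPM against 48.0 CPM (-0.01), and the ligands Jag1 and Jag2 at 0.05 and 0.96 (Jag2 from 22 counts against 9, interval -0.05 to 2.43). Among 34 growth factor and insulin pathway genes 1 was higher, Nrg4, a ligand of ERBB4 (48 counts against 10, 1.88), and 1 lower, Btc, a ligand of EGFR (22 against 52, -1.31). Of 15 clock genes 3 were higher, Dbp (31 against 7, 1.70), Cry1 (31 against 11, 1.18) and Tef (131 against 51, 1.16), and 0 lower. Arntl, which is expressed in the opposite phase to Dbp, was at -0.43. The hour of sampling is not given in the sources used here.

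Outside the lists and named by the size of their interval, Efr3b, which anchors a lipid kinase at the membrane, had 86 counts under HFD and 8 under control (2.95). Slc25a34, a mitochondrial carrier, had 82 against 10 (2.63), and Prex1, a Rac exchange factor, 61 against 8 (2.47). Hsd3b3, a hydroxysteroid dehydrogenase, had 100 against 17 (2.25). Among the lower genes Ceacam10, of the carcinoembryonic antigen family, had 28 counts against 589 (-4.44, interval -5.16 to -4.01), and Cd177, a surface protein best known from neutrophils, 17 against 361 (-4.38, interval -5.37 to -3.87). These 2 genes lie beside each other on chromosome 7, Cd177 at 24743983 to 24760311 and Ceacam10 at 24777206 to 24784657. Barx2, a homeobox factor, had 15 counts against 223 (-3.85). Ceacam1 (-1.25) and Clca3b (2934 counts against 7963, -1.60) were among the lower genes with the most counts.

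Several genes counted in the same direction were neighbours. Groups of at least 3, each gene within 200 kb of the next, numbered 7 among the higher and 4 among the lower genes. The largest was on chromosome 17, between 34119541 and 34316674, with H2-DMa, H2-DMb1, Psmb8, H2-Ab1, H2-Aa and H2-Eb1, all lower. Clca3a1, Clca3a2, Clca3b and Clca1 were lower on chromosome 3, and Gm12250, Igtp and Irgm2 on chromosome 11. Among the higher groups were the phosphatases Alppl2, Alpi and Akp3 on chromosome 1, between 87086694 and 87127912, and the carboxylesterases Ces2a, Ces2b, Ces2e and Ces2g on chromosome 8. Members of such families are similar in sequence, so reads may be shared among them. Exons of 35.1% of all genes compared, and of 123 of the 461 counted, overlap another annotated gene.

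The same comparison in GFP-high cells covered 10836 genes, of which 123 (1.14%) were higher and 186 (1.72%) lower. Of the genes higher in GFP-low cells, 30 were also higher in GFP-high cells, 17.05% of the GFP-low list and 24.4% of the GFP-high list. Of the lower genes 84 were shared, 29.5% and 45.2% of the respective lists. Only 135 of the 176 higher genes reached the minimum of 20 counts in GFP-high cells, and 217 of the 285 lower ones. The remaining genes could not be counted in GFP-high cells, so 17.05% and 29.5% understate the sharing among genes compared in both fractions. No gene was counted in opposite directions. The higher genes had a median log2 ratio of 1.23 in GFP-low and 0.55 in GFP-high cells, and the lower genes -1.29 and -0.56; since the GFP-low values chose these genes, their medians are a description only. The difference between fractions was larger than counting error for 68 higher genes (of 176) and 116 lower ones (of 285). Choosing the genes by their GFP-low ratios favours such differences, and the share over all genes was not counted, so these numbers are a description only. The difference was not tested, because 1 library per group leaves no spread.

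Host defence genes were lower in both fractions. Duox2 was at -2.79 in GFP-low and -2.80 in GFP-high (difference 0.02, interval -0.37 to 0.41), Reg3g at -3.23 and -3.28, and Nos2 at -5.38 and -5.57. Reg3b was lower still in GFP-high cells, at -3.68 and -4.86 (difference 1.18, interval 0.42 to 1.94), and Cd74 less so, at -3.54 and -2.87 (difference -0.66, interval -0.84 to -0.49). The MHC class II list had medians of -1.89 and -2.15. Fatty acid genes differed from each other in this respect: Fabp1 was at 2.91 in GFP-low and 3.63 in GFP-high (difference -0.72, interval -1.16 to -0.28), Acot2 at 2.11 and 0.74 (difference 1.37, interval 0.46 to 2.27) and Mgll at 1.91 and 4.38, the last from 142 counts against 3. Sis was at 2.13 and 3.38 (difference -1.24, interval -1.64 to -0.85).

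Goblet and enteroendocrine lists had unlike medians in the fractions, and the Paneth list more similar ones, though single Paneth genes differed. The Paneth list had medians of -0.72 and -0.52, with Lyz1 at -0.65 and -0.69 (difference 0.04, interval -0.08 to 0.16). Paneth genes counted as lower in GFP-low cells could differ more. Mmp7 was at -2.33 and -1.23 (difference -1.09, interval -1.40 to -0.79) and Nupr1 at -1.45 and 0.09 (difference -1.54, interval -2.70 to -0.39). The differences were -0.94 for Pla2g2a (interval -1.65 to -0.23) and -0.52 for Itln1 (interval -0.69 to -0.34). The goblet list had a median of -0.94 in GFP-low and -0.13 in GFP-high, and the same genes took 0.555% of the counts under HFD and 0.696% under control in GFP-high cells. Muc2 was at -1.46 and -0.47, Atoh1 at -1.13 and -0.20 (difference -0.93, interval -1.24 to -0.63). The enteroendocrine list had medians of -0.95 and 0.46, with Chga at -1.50 and 0.46 and Chgb at -1.21 and 0.44. In GFP-high cells the interval of Chga (-0.09 to 1.07) held 0 and that of Chgb (0.18 to 0.71) did not. Some list genes had very few counts there, such as Gip with 8 under HFD against 4 and Scg2 with 6 against 2. The list summed to 970 and 559 counts in GFP-high cells, a share of 0.0156% under HFD and 0.0107% under control, far below that in GFP-low cells. Hk2 was at -1.30 and -0.07 (difference -1.23, interval -1.52 to -0.95), and the lipid droplet list had medians of 0.71 and -0.04.

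**Figure D5:**
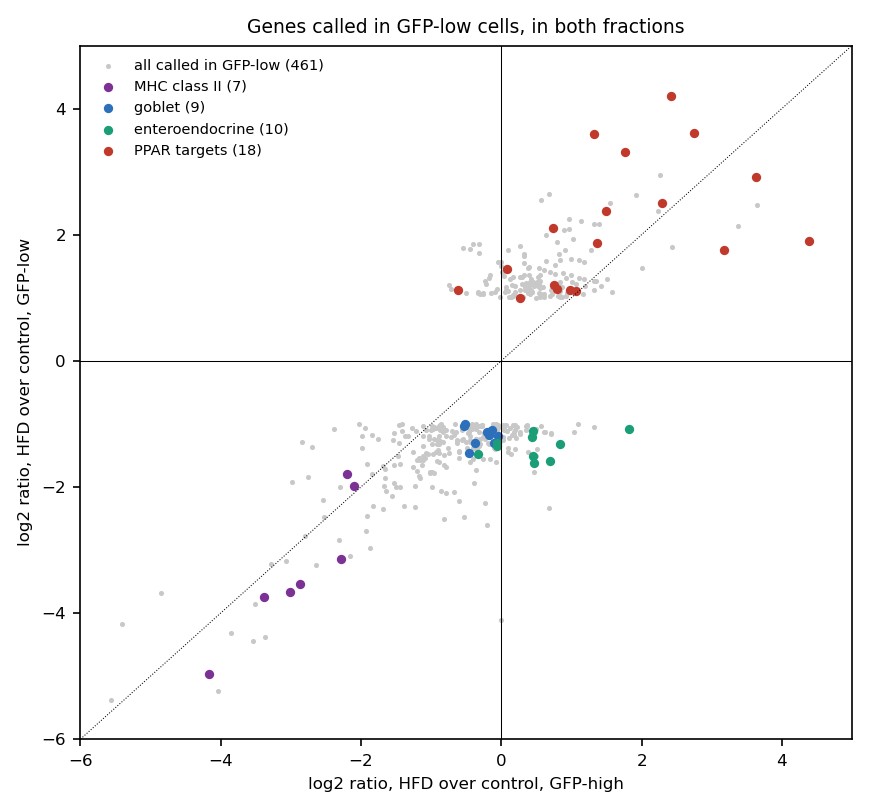
Each point is 1 of the 461 genes counted in GFP-low cells, with its log2 ratio of HFD over control in GFP-high cells across and in GFP-low cells upward; the dotted line marks equal ratios. The 7 MHC class II genes lie within 1 log2 unit of that line, and 9 goblet and 10 enteroendocrine genes sit at -1 or below in GFP-low while in GFP-high the goblet genes lie between -1 and 0 and most enteroendocrine genes above it. Some enteroendocrine genes had very few counts in GFP-high, such as Gip with 8 under HFD and 4 under control.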

How the data were processed

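Poly(A)-selected RNA was sequenced with a stranded dUTP kit, per the labels' protocols. The authors deposited raw read counts per gene, made with cutadapt, TopHat 1.4.1 and HTSeq on GRCm38/mm10, per the submitters' processing notes. Which annotation and which strand option HTSeq used is not given in the sources used here. Genes with overlapping exons may therefore share reads. TMM factors over all 4 libraries were 0.928 (HFD, GFP-low), 0.944 (control, GFP-low), 1.08 and 1.06 (edgeR 4.0.16, R 4.3.3). Intervals are exact Clopper-Pearson limits of the ratio of 2 counts (SciPy 1.17.1), without the 0.5 CPM that was added to the log2 ratios. Without molecular identifiers, these limits cover counting error only. The calculation was tested on simulated data. The comparison and the 51 gene lists were chosen with earlier results of these data known. Named genes were the 15 higher and 15 lower with the interval farthest from equality at 10 CPM or more, the 3 highest and 3 lowest counted members of each list, the 10 higher and 10 lower with the most CPM, and genes listed by name; predicted genes and pseudogenes were passed over. Other genes are named as members of a list described beside them. Exons and positions are those of GENCODE M21. Other scalings (library totals, DESeq2 1.42.0 size factors), added CPM, count minimums and fold thresholds were tried. Some genes that the naming rule takes in are not reported here.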

Additional observations from a re-analysis of the deposited data

Results flagged for a closer look

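Chgb, a granin of enteroendocrine cells, had opposite signs in the fractions. Its log2 ratio of HFD over control was -1.21 (interval -1.30 to -1.12) in GFP-low cells, from 1422 and 2935 counts, and 0.44 (interval 0.18 to 0.71) in GFP-high cells, from 324 and 197 counts, a difference of -1.65 (interval -1.92 to -1.38). It is given here because each fraction's interval lies wholly on its own side of 0. Among all genes counted in GFP-low cells this held for 4 lower genes (Chgb, Gcg, Tph1 and Tpbg) and 1 higher gene (Zfp442), named here after their values were seen. The intervals cover counting error only, and the difference was not tested, since each group has 1 library.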

How the results depend on the processing

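The counts of 176 higher and 285 lower genes became 74 and 126 with a minimum of 100 counts, 572 and 698 at 1.5-fold, and 22 and 44 at 4-fold. With a minimum of 1 count the lower genes numbered 455, and the higher ones, at 254, stayed within 1.5 times. Scalings gave 163 to 190 higher and 271 to 306 lower genes, moved the median of all genes by at most 0.03, and put the share of counted genes that were higher at 34.8% to 41.2% (38.2% as reported). Adding 2 CPM gave 118 and 206, and restricting to genes without exon overlap, chosen after seeing the data, 122 and 216. With 2 CPM added, genes near 0 counts in 1 library had smaller ratios, such as -4.03 for Nos2, 2.69 for Pdk4 and 1.96 for Acaa1b. Medians of lists changed sign under some settings. With another scaling of the same 10564 genes, cholesterol genes went from 0.02 to -0.0073 (library totals) and mitosis from -0.02 to 0.0086 (totals without mitochondrially encoded genes), beside shifts of all genes of -0.02 and 0.03. The other changes came with settings that compare other genes. With 100 counts fatty acid synthesis went from 0.03 to -0.0761 and ribosome biogenesis from 0.04 to -0.0039. With 1 count tuft cells went from -0.20 to 0.0701 and stroma, with 1 gene as reported, from -0.70 to 0.1024. Without exon overlap fatty acid synthesis was at -0.2978, tuft cells at 0.0559, epithelium at -0.0461 (0.04 as reported) and reactive species at 0.1529 (-0.32 as reported, -0.013 with 100 counts and -0.12 with 1 count). Other medians kept their sign but moved by over 1.5 times: MHC class II to -3.34, lipid uptake from 0.43 to 0.80 and brush border to 0.67 without exon overlap, antimicrobial proteins to -1.51 with 1 count, and gut region genes from 0.35 to 0.0935 and brush border to 0.67 with 100 counts. No paired analysis was possible because each group has 1 library, and for the same reason no library could be left out.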
